A study of Mus musculus with 60 samples.

Results

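The cytosolic ribosomal protein genes are the genes that encode the protein part of the ribosomes outside mitochondria. They were chosen by name: entries whose symbol begins with Rpl or Rps followed by a digit, together with Rpsa, Rplp0, Rplp1 and Rplp2, leaving out 269 entries named as pseudogenes (-ps) and the 10 entries of the Rps6k kinases. The rule found 91 of the 47574 entries in the deposited tables, and 87 of them had a mean level of at least 0.5 FPKM (fragments per kilobase of transcript, scaled to library size, here after each library was rescaled), as did 16076 entries in all. By name and annotation, 31 members encode the small subunit, 42 the large subunit and 3 the P stalk, and 14 are retrocopies or paralogs of another member. The remaining member, Rps19bp1, carries the prefix because its product binds Rps19, and it is not part of the ribosome. Rpl10l was listed at 0 in all 60 libraries, and Rpl39l, Rps12 and Rpl3l, the other members under the minimum, were at 0 in 42, 35 and 15 libraries.

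A ribosome joins a small subunit, which reads the messenger RNA, and a large subunit, which forms peptide bonds and carries the flexible P stalk that recruits translation factors. Each subunit needs its proteins in matched amounts, and vertebrate ribosomal protein genes are known for short mRNAs with a pyrimidine tract at the 5' end (TOP mRNAs), through which mTOR signalling controls their translation, and for a very large number of processed pseudogenes elsewhere in the genome. In the brain, ribosomal protein mRNAs are found in every cell type, and some of them are also carried into axons and dendrites.

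The study compared mice carrying a huntingtin allele that lacks the 3' part of exon 12 (Δ12) with mice carrying a KO allele, in which an imprecise deletion in the same exon took away the splice donor. RNA was taken from cortex and striatum at 3 months in c57BL-6N mice that were KO/+ or +/+ of the KO line, which came from 1 founder, or Δ12/Δ12, Δ12/+ or +/+ of the Δ12 line. Each of the 10 groups of line, genotype and tissue label has 6 libraries, 3 labelled male and 3 labelled female, made from total RNA after removal of ribosomal RNA. The labels do not say whether the cortex and striatum libraries of the same number come from the same animal.

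The labels and the expression of tissue markers disagreed, so the members are described by expression. Libraries with Slc17a7, the vesicular glutamate transporter of cortical neurons, above 100 FPKM were called cortex-like (30 libraries, 121 to 234 FPKM), and the rest were called striatum-like (30 libraries, 4.81 to 64.8 FPKM). Drd2, a dopamine receptor of striatal neurons, was at 0 to 18.5 FPKM in the cortex-like and at 29.4 to 61.8 FPKM in the striatum-like libraries. In the Δ12 line, the +/+ and Δ12/+ libraries and the labelled males of Δ12/Δ12 were cortex-like under both tissue labels. All libraries of the KO line were striatum-like, and so were those of Δ12/Δ12 that are labelled female. Class therefore matched the tissue label in 30 of 60 libraries, and the sex-linked transcripts matched the sex label in 30 of 60. Both classes occur within Δ12/Δ12 as labelled. Tissue and whatever else separates the classes cannot be told apart, and no test was made between the classes. Estimated depth was 12.8 to 19.5 M fragments in cortex-like and 16.4 to 27.5 M in striatum-like libraries.

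Ribosomal protein genes were listed at a far higher summed FPKM in the cortex-like libraries. The summed FPKM of the 91 members equalled 3.47% to 4.96% of that of all protein-coding entries in the cortex-like libraries (median 4.52%), against 1.33% to 1.57% in the striatum-like libraries (median 1.45%). The ranges lie apart, with no library between them. Rpl37rt, Rps12l1, Rps3a2, Rps3a3, Rps4l and Rpl6l are annotated as pseudogenes and counted among the members but not in the protein-coding total. As a sum of rescaled FPKM the members reached 7946 to 14191 (median 11252) in the cortex-like and 2669 to 3196 (median 2855) in the striatum-like libraries. In the groups labelled Δ12/Δ12 this percentage followed the labelled sex: under the striatum label it was 4.61% to 4.91% in the 3 labelled males and 1.51% to 1.57% in the 3 labelled females, and under the cortex label 4.15% to 4.62% and 1.36% to 1.43%. The other 8 groups each lay in a single class, with medians of 4.36% to 4.69% in the groups of the Δ12 line and 1.43% to 1.49% in those of the KO line.

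**Figure D1:**
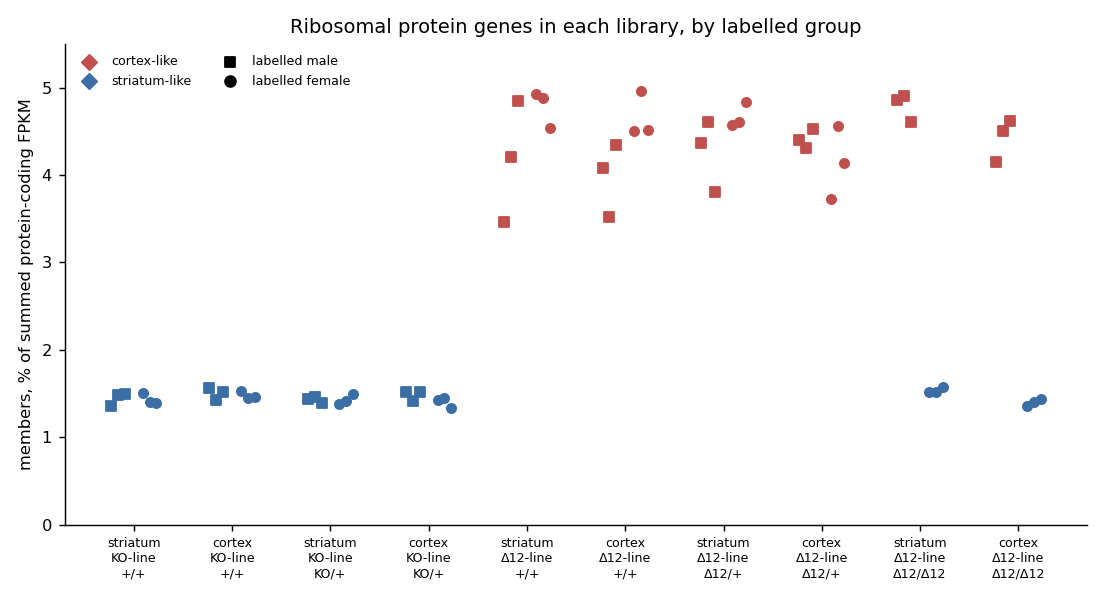
Summed FPKM of the 91 members as a percent of that of protein-coding entries in each of the 60 libraries, by labelled group. Squares are labelled males, circles labelled females, red cortex-like and blue striatum-like. Red points lie between 3.47% and 4.96% and blue points between 1.33% and 1.57%, and the Δ12/Δ12 groups split by labelled sex.

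The higher level was shared by most members. The class median was higher in the cortex-like libraries for 81 of the 87 members and lower for 6. For 40 members every cortex-like library lay above every striatum-like library, for none did the reverse hold, and 47 overlapped. Over all 16076 entries, 16.9% were higher without overlap and 19.3% were lower without overlap. The median difference (log2 of rescaled FPKM + 0.5, cortex-like minus striatum-like) was 1.24 over the members, a fold of 2.36, and −0.03 over all entries.

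The small subunit held the largest differences, with 17 of 30 members higher without overlap and a median difference of 1.54. Rps14, a protein of the platform of the small subunit, was at 662 to 1842 FPKM (median 1240) in the cortex-like and at 62.8 to 109 FPKM (median 82.9) in the striatum-like libraries. This is a fold of 15.0 between medians, the largest of any member, and the deposited upper bound lay 3.95% and 10.2% above the value (medians of the classes). Rps3, a protein of the mRNA entry channel that also acts in DNA repair, was at 461 to 1408 FPKM (median 713) against 51.0 to 71.4 (median 60.9). Rps7, whose product also binds the p53 regulator Mdm2, was at 12.0 to 30.5 FPKM (median 19.5) against 0.842 to 2.56 (median 1.63). Rps21, the member with the highest median over all 60 libraries (566 FPKM), was at 894 to 1874 FPKM (median 1323) against 154 to 238 (median 200.0). None of these genes overlapped between the classes. The next in size were Rps25, which takes part in initiation at viral internal ribosome entry sites (log2 difference 2.60), Rps24 (2.44), Rps18 (2.43) and Rps10 (2.33), again without overlap. Others without overlap were Rps9 (1.94), Rps15 (1.85), Rps2 (1.65) and Rps6, the target of the S6 kinases, at 0.85.

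In the large subunit 14 of 42 members were higher without overlap, 28 overlapped, and the median difference was 1.06. Rpl13a, known outside the ribosome for silencing the translation of inflammatory mRNAs, was at 512 to 1369 FPKM (median 765) in the cortex-like and at 59.6 to 82.8 FPKM (median 69.7) in the striatum-like libraries, a fold of 11.0. Rpl32 was at 288 to 509 FPKM (median 373) against 57.0 to 89.4 (median 73.3). Rpl41, which encodes a very short basic peptide, was at 640 to 1362 FPKM (median 942) against 179 to 264 (median 213). These genes did not overlap between the classes. The other 11 without overlap ran from Rpl17 (log2 difference 2.32), Rpl35 (2.19) and Rpl12, which binds beside the stalk (2.12), to Rpl22 (1.23) and Rpl3, a protein near the peptidyl transferase centre (1.16). The 5 large-subunit genes with a lower cortex-like median all overlapped. Rpl28 was at 0 to 4.73 FPKM (median 0.950) against 1.76 to 5.99 (median 2.62), a log2 difference of −1.11, and Rpl4 was at 30.3 to 77.7 FPKM (median 47.6) against 64.1 to 88.3 (median 76.7), a log2 difference of −0.68. Rpl30 (−0.50), Rpl23 (−0.19) and Rpl31 (−0.15) differed less, and Rpl23 and Rpl31 were higher by 0.09 and 0.23 in the FPKM as deposited.

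The 3 P-stalk genes lay apart from each other in level. Rplp0, the base of the stalk, was at 45.3 to 89.8 FPKM (median 68.6) in the cortex-like and at 11.7 to 19.2 FPKM (median 14.6) in the striatum-like libraries, without overlap. Rplp1 was at 123 to 226 FPKM (median 180) against 93.9 to 136 (median 112), and Rplp2 at 2.53 to 10.6 FPKM (median 6.34) against 2.02 to 5.80 (median 3.15). Rplp1 and Rplp2, which bind the stalk as a dimer, overlapped between the classes and differed by 0.68 and 0.91 on the log2 scale. In FPKM, Rplp1 was thus listed many times above its partner in both classes. The deposited FPKM also carry confidence bounds. The upper bound lay 6.87% and 8.69% above the value of Rplp1 (medians of the cortex-like and striatum-like libraries), and 39.1% and 62.8% above that of Rplp2.

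**Figure D2:**
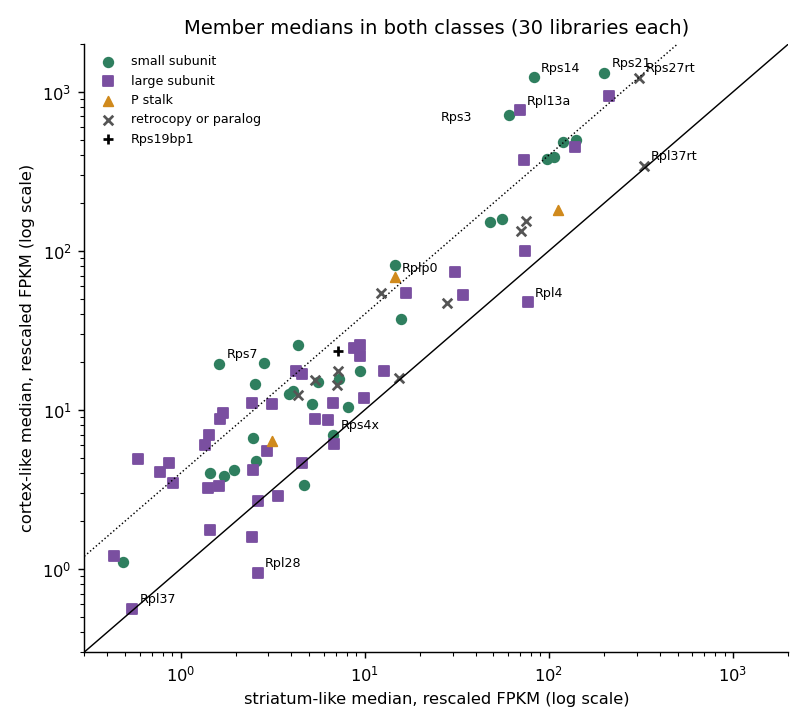
Median rescaled FPKM of the members in the 30 cortex-like libraries (y axis, log scale) against the 30 striatum-like libraries (x axis, log scale), with shapes for the role of each member. The solid line marks equal medians and the dotted line a fold of 4. Of the 87 members past the minimum level, 81 lie above the solid line, Rps14, Rps3, Rpl13a and Rps7 lie far above the dotted line, and Rpl4 and Rpl28 lie below the solid line.

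**Figure D3:**
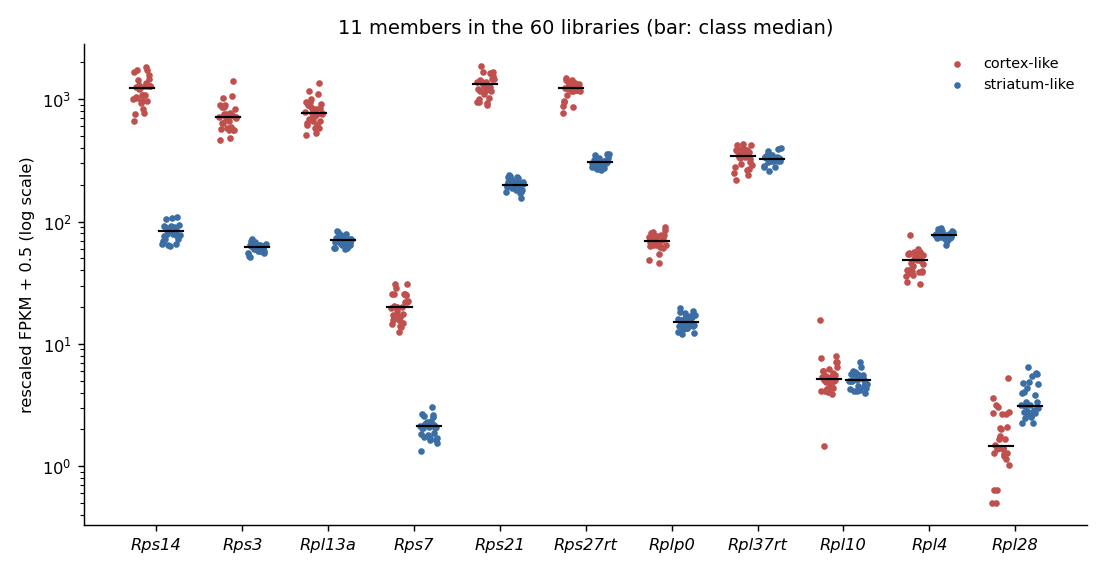
Rescaled FPKM + 0.5 (log scale) of 11 members in each of the 60 libraries. Red points are cortex-like, blue points striatum-like, and bars are class medians. Rps14, Rps3, Rpl13a, Rps7, Rps21, Rps27rt and Rplp0 do not overlap between the classes, and Rpl37rt, Rpl10, Rpl4 and Rpl28 do.

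The size of the difference depended on how libraries were scaled, and for 11 members so did its sign. In the FPKM as deposited, 47 members were higher without overlap and the median difference was 1.58, while the median over all entries was 0.19. Over all 16081 entries past the minimum in these values, 3355 were higher and 1588 lower without overlap. Under quantile normalization, which gives every library the same distribution of values, 24 members were higher without overlap, 2 were lower without overlap, and the median was 0.96, while over all 16076 entries 2291 were higher and 3307 lower without overlap. Of the 11 members, 9 with a higher cortex-like median turned lower under quantile normalization. Rpl8 went from 1.70 to −0.12, Rpl41 from 2.14 to −0.09, Rps27rt from 2.00 to −0.84 and Rpl37rt from 0.07 to −2.28. Rplp1, Rpl29, Rps12l1, Rps3a2 and Rpl6l were the others, at −0.71 to −0.06. The largest differences kept their sign but not always their size. Rps14 went from 3.89 to 2.14 and Rps21 from 2.72 to 0.14, while Rps7 went from 3.23 to 3.16. Rplp0, which is not among the 10 largest, went from 2.19 to 1.76. Leaving out the 10 striatum-like libraries with Slc17a7 above 25 FPKM gave 40 members without overlap and a median of 1.24. Over all 15940 entries of that setting, 2852 were higher and 3251 lower without overlap. Within the 12 libraries labelled Δ12/Δ12 alone, 59 members were higher and 1 was lower without overlap, with a median of 1.33, and over all 15867 entries 4464 were higher and 5120 lower without overlap.

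Length moved with the difference. Of the members past the minimum level, 64 have a coding transcript of at most 1000 nt, and their median difference was 1.43, with 42.2% higher without overlap. The other 1007 protein-coding entries of that length had a median of 1.09, with 44.4% higher without overlap. Short protein-coding transcripts outside the ribosome thus stood higher without overlap in a like share. Above 1000 nt, 17 members had a median of 1.35, with 58.8% higher without overlap, and 11919 other entries had a median of −0.18, with 15.5% higher without overlap. Among the other entries the median fell from 1.18 at 500 to 700 nt through 0.69 at 1000 to 1500 nt to −0.73 above 5000 nt. The part of transcript length in the members' difference was not tested.

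**Figure D4:**
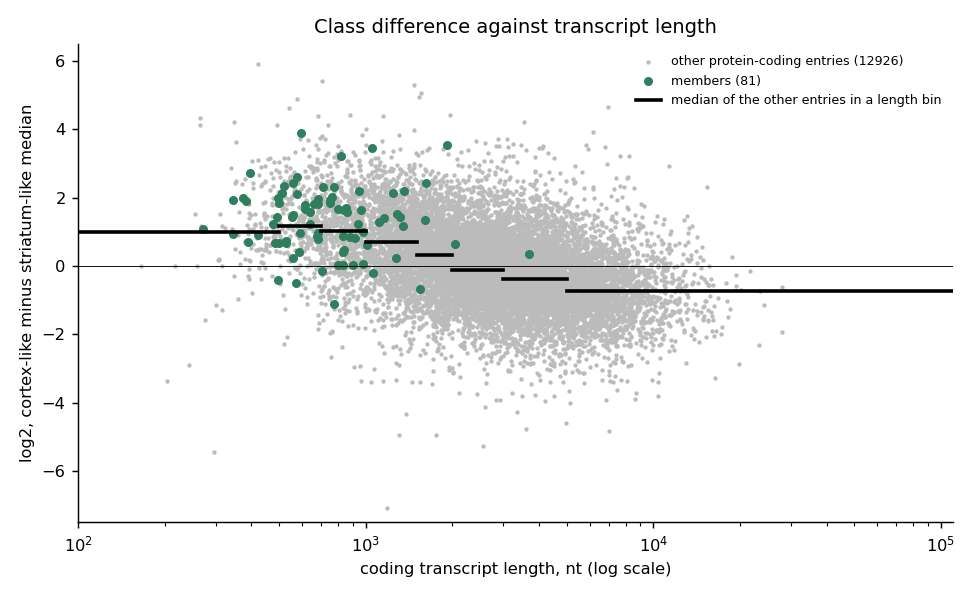
Difference between class medians (log2, cortex-like minus striatum-like) against the length of the coding transcript (nt, log scale). Green points are 81 members with an annotated coding transcript, grey points 12926 other protein-coding entries, and black bars the median of the grey points in a bin of length. The bars fall from 1.18 at 500 to 700 nt to −0.73 above 5000 nt, and members lie above and below them.

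The classes also differed in the markers of cell types and tissues. All 8 striatal markers were lower without overlap in the cortex-like libraries (sums of 92.4 to 578 against 1144 to 2277 FPKM), and 1 of 7 cortical markers, the Slc17a7 that defined the classes, was higher without overlap. The 7 cortical markers summed to 125 to 234 against 16.4 to 94.2 FPKM. This sum holds Slc17a7, so its separation follows in part from the rule that set the classes. The other 6 cortical markers overlapped. Of 4 oligodendrocyte markers 3 were lower without overlap (252 to 518 against 644 to 1071 FPKM), as were 2 of 4 of microglia (18.2 to 35.1 against 37.4 to 52.1 FPKM). In each of these lists 1 marker had a higher cortex-like median. Of 4 haemoglobin transcripts, which mark blood, 2 were higher without overlap (693 to 2354 against 118 to 205 FPKM). The 3 choroid plexus markers overlapped, at 1.63 to 374 against 31.7 to 2074 FPKM. Markers of astrocytes, endothelium, meninges and neurons overlapped in their sums, and no list had a marker with a median of 0. Of 3 endothelial markers, however, 1 was higher and 1 lower without overlap, and of 3 neuronal markers 1 was lower without overlap. The part of these cells in the members' levels was not tested, and in bulk tissue fewer cells of a type and less RNA per cell cannot be told apart.

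Members varied among themselves by more than they varied within a class. Over all 60 libraries the medians ran from 0 to 566 FPKM, and the highest were those of Rps21, Rps27rt (561 FPKM), Rpl41 (452), Rps14 (385) and Rpl37rt (334). At the low end, after Rpl10l, Rpl39l and Rps12 with a median of 0, stood Rpl3l (0.127) and Rpl37 (0.553). The subunit members alone, whose proteins enter the ribosome in matched amounts, ran from Rps12 (0) and Rpl37 (0.553) to Rps21 (566 FPKM). Copies of Rps12 and Rpl37 were listed far above them, as given below, and the part of fragment assignment was not tested. The median SD of a member (log2) was 0.35 in the cortex-like and 0.24 in the striatum-like libraries, against 0.30 and 0.19 for the other entries. The steadiest members were Rpl8, which lies near the peptidyl transferase centre (SD 0.18), Rpl5, a carrier of the 5S RNA (0.19), and Rps15 (0.20) in the cortex-like libraries, and Rpl15, Rps3a2 and Rpl7l1 (0.08 to 0.09) in the striatum-like libraries. The least steady were Rpl28, Rpl37a and Rps29 (0.80 to 0.82) in the cortex-like and Rps29 and Rpl36 (0.71 and 0.69) in the striatum-like libraries, all with class medians under 5 FPKM. The libraries of a class also moved as a whole: the median over members had an SD of 0.15 (log2) over the cortex-like and of 0.06 over the striatum-like libraries.

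Several copies of members were listed far above the genes they derive from. Rps27rt was at 764 to 1501 FPKM (median 1231) in the cortex-like and 266 to 358 FPKM (median 307) in the striatum-like libraries, while its parent Rps27, a zinc finger protein of the small subunit, was at 1.85 to 21.0 (median 4.17) and 0.717 to 3.56 (median 1.94). Their coding sequences in GENCODE release M21 (build GRCm38) are identical over all 252 nt, and 98.6% of the 50-base words of the Rps27 transcript also occur in Rps27rt. The paralog Rps27l, a p53 target that can replace Rps27 in the ribosome, is 69.8% identical and was at 54.3 and 12.3 FPKM (class medians). All 3 are given as the first 30 coding bases, on the strand of the transcript, with capitals at the 10 positions where Rps27l differs from the other two. They are shown because reads from Rps27 and Rps27rt cannot be told apart by this stretch, and reads from Rps27l can.
Rps27 (chr3:90213278-90213615, minus strand, across an intron): atgccTctCgcAaAGgatctCCtTcaTccC
Rps27rt (chr9:114982678-114982707, minus strand): atgccTctCgcAaAGgatctCCtTcaTccC
Rps27l (chr9:66946175-66946854, plus strand, across introns): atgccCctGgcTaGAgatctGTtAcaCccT

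Rpl37rt also stood far above its parent Rpl37, a zinc finger protein of the large subunit. Rpl37rt was at 219 to 429 FPKM (median 344) in the cortex-like and at 258 to 402 FPKM (median 327) in the striatum-like libraries, and Rpl37 was at 0 to 1.12 FPKM (median 0.564) and 0.203 to 1.01 (median 0.548). Both overlapped between the classes, and Rpl37rt was above Rpl37 in 60 of 60 libraries. Over the 291 coding nt of Rpl37 the copy differs at 1 base, G249A, counted from 1 at the start of the coding sequence with the base of Rpl37 given before the position. The 30 coding bases around it are shown on the strand of the transcript, with that base in capitals, since a read elsewhere in the coding sequence matches both genes.
Rpl37 (chr15:5118577-5118606, plus strand): cgtgagggaacaacGccgaaacccaagagg
Rpl37rt (chr5:115103258-115103287, minus strand): cgtgagggaacaacAccgaaacccaagagg

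The other copies and paralogs stood above or below their parents. Rps12l1 was at 155 and 75.1 FPKM (class medians, cortex-like before striatum-like) while Rps12 was at 0.055 and 0. Rps3a2, which differs from Rps3a1 at 4 of 792 coding nt, was at 134 and 70.2 FPKM against 10.9 and 5.18 for Rps3a1. The nearly identical Rps3a3, with 9 differences, was at 14.4 and 7.11 FPKM. In 60 of 60 libraries Rps12l1, Rps3a2, Rps27l and Rpl36al were above their parents, as Rps3a3 was in 58 and Rpl6l in 56. Rpl22l1 and Rpl3l were listed below their parents in 60 of 60 libraries: Rpl22l1 at 12.5 and 4.32 FPKM against 73.6 and 31.1 for Rpl22, and Rpl3l, the striated muscle form of Rpl3, at 0.067 and 0.150 against 21.8 and 9.45. Rpl39l and Rpl10l, known from testis, were at or near 0 beside 16.9 and 4.57 FPKM for Rpl39 and 4.63 and 4.56 for Rpl10. Rps4l was above Rps4x in all 30 cortex-like and in 15 striatum-like libraries, and Rpl7l1 was above Rpl7 in 15 cortex-like libraries and in no striatum-like library. Of the 11 copies and paralogs past the minimum level, 7 were higher without overlap in the cortex-like libraries, with a median difference of 1.04.

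The annotated pseudogenes that the rule leaves out carried more FPKM than the members. For 58 members the tables also list pseudogene entries of that name, 263 in all, and their sum was 10816 to 19410 FPKM (median 15450) in the cortex-like and 4162 to 5103 FPKM (median 4566) in the striatum-like libraries. They made up 55.5% to 59.7% and 59.9% to 63.7% of members and pseudogenes together. The pseudogenes of 39 members were above the member in every library, and those of the other 19 in none. For Rpl38, a protein tied to the translation of Hox mRNAs, the median of the member was 17.7 FPKM and that of its pseudogenes 2432 FPKM in the cortex-like libraries. For Rpl9 these values were 5.98 and 1865 FPKM. Fragments from a member and from near-identical entries cannot be told apart in such stretches, so a low listed level may not show how much of that mRNA was present, and the part of fragment assignment in these levels was not tested.

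Among the members of the subunits and the stalk, copies and paralogs left out, those that share little sequence with other genes were listed at higher levels in the middle. The share of a member's 50-base words that also occur in transcripts of other genes was under 10% for 4 of them, among them Rps3 (2.96%), Rps20 (7.44%) and Rpl8 (7.86%). The middle of their class medians was 468 FPKM in the cortex-like and 89.9 FPKM in the striatum-like libraries. For the 29 with 10% to 50% it was 25.7 and 9.47 FPKM, and for the 43 with 50% or more it was 10.9 and 3.89 FPKM. Levels were thus lower in the sets with more sequence in common, and the ranges of the sets overlapped. The order did not extend to the paralogs, since Rpl39l, Rpl3l and Rpl10l also share under 10% and were at or near 0. The median class difference was 1.87, 1.50 and 0.99 in these 3 sets. When every member was summed with its pseudogenes and retrocopies, 53 of 81 sums were higher without overlap, 0 were lower without overlap, 4 had a difference below 0, and the median difference was 1.54.

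The RefSeq promoter table (build GRCm38.p6, 250 bases before to 50 after the start) held 66 of the 91 members. A run of a C followed by at least 5 pyrimidines, beginning within 10 bases before to 20 after the start, as in a TOP mRNA, was present in 56.1% of these members and in 24.9% of 27025 promoters. The word CCGGAAG, the core of an Ets family site, was in 39.4% of members and 9.93% of all promoters, and GCCATNTT, the core of a YY1 site, was in 19.7% and 6.96%, each on either strand over 300 bases. The mitochondrial ribosome genes, which are not TOP mRNAs, had the run in 26.1% of 69 promoters, CCGGAAG in 37.7% and GCCATNTT in 30.4%. Among the members of the subunits the median class difference was 1.47 with the run (32 genes) and 1.23 without it (23 genes), with ranges of −1.11 to 3.45 and −0.68 to 3.54 that overlap nearly whole. The 30 bases around the start of 5 members are shown to set large and small differences side by side, with the run in capitals where there is one. Rps3 and Rpl13a rank among the largest differences, Rps21 among the highest levels (RefSeq lists a further start for it, at chr2:180257439-180257468, that has no run), and Rpl28 and Rpl4 are lower in the cortex-like libraries.
Rps3 (chr7:99483690-99483719, minus strand): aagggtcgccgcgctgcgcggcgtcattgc
Rpl13a (chr7:45128726-45128755, minus strand): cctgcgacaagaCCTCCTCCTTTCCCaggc
Rps21 (chr2:180257369-180257398, plus strand): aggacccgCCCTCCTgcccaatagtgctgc
Rpl28 (chr7:4792955-4792984, plus strand): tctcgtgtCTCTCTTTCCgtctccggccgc
Rpl4 (chr9:64173377-64173406, plus strand): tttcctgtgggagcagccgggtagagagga

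The run is present in Rpl28, which has the lowest difference of all members, and absent in this window of Rps3, which has a high one. A match is only a match of letters, and its absence from this window says nothing of how the mRNA is translated.

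Genes that work beside the members were set against them. Of the ribosome genes outside the naming rule, Gnb2l1, which encodes the scaffold Rack1 on the small subunit, was at 216 to 491 FPKM (median 357) in the cortex-like and at 45.5 to 62.8 FPKM (median 51.4) in the striatum-like libraries. Fau, which encodes a small-subunit protein fused to a ubiquitin-like protein, differed by 1.79 (log2) and did not overlap. The 77 genes of the mitochondrial ribosome, which share neither proteins nor TOP control with the cytosolic one, had a median difference of 1.36, with 52 higher and 0 lower without overlap, led by Mrpl53 (3.74), Mrpl12 (3.42) and Mrpl41 (3.19). This is 67.5% higher without overlap, against 16.9% of all entries. Among other protein-coding entries with a coding transcript of at most 1000 nt it was 44.4%. The cortex-like median was higher for 67 of these 77 genes, as for 81 of the 87 members. Of 45 ribosome biogenesis genes 10 were higher and 7 lower without overlap, with a median difference of 0.00. In the FPKM as deposited 14 of them were higher and 1 lower (median 0.33), and with scaling by transcripts above 1000 nt 11 were higher and 3 lower (median 0.10). Polr1d and Polr1c, subunits shared by RNA polymerases I and III, were higher (2.36 and 2.23), and Ncl, the nucleolar protein nucleolin, was lower (−2.16). Of 48 translation factors 17 were higher and 12 lower without overlap, with a median of 0.43. Eif3i (2.64) and Eif3h (2.62), subunits of an initiation factor, stood at the upper end and the poly(A)-binding protein Pabpc1 (−2.55) at the lower. The balance of this list turned with the scaling, with 10 higher and 16 lower under quantile normalization (median 0.07) and 22 higher and 4 lower in the FPKM as deposited (median 0.76). Of 14 genes of mTOR signalling and TOP-mRNA control 0 were higher and 3 lower without overlap, with a median of −0.09, and Larp1, which binds TOP mRNAs, was at −1.62.

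The labelled comparisons were tested next, each with limma on 6 libraries of each group, labelled sex as the covariate and p-values adjusted by Benjamini-Hochberg over all entries tested, and called at an adjusted p under 0.05. Few members were called in the heterozygous genotypes. For KO/+ against +/+ under the striatum label, 1 of 86 members was called, lower, against 8.17% of all 15808 entries called and 3.78% called lower, and the median member difference was −0.00. That member was Rpl11, which carries the 5S RNA with Rpl5 and binds Mdm2. It was at 1.59, 1.60, 1.41, 1.25, 0.949 and 0.979 FPKM in KO/+ and at 1.86, 3.27, 1.56, 3.73, 2.21 and 2.43 in +/+. The groups overlapped slightly, and the difference was −0.72 (log2, SE 0.18, limma adjusted p = 0.033). The call was lost in the FPKM as deposited, with no minimum level, and without +/+ male2, female1 or female3 or KO/+ male3, female1, female2 or female3. Without +/+ male1 or KO/+ male1, 2 members were called. Under the cortex label Rpl11 differed by 0.20 in the same genotypes. Htt, checked as the gene of the KO allele, did not separate the genotypes as labelled. Under the striatum label it was at 16.7, 11.6, 16.8, 11.7, 16.7 and 11.8 FPKM (as deposited) in KO/+ and at 15.4 to 18.1 in +/+. The Htt difference was −0.14 (SE 0.10, limma adjusted p = 0.47), and under the cortex label −0.07 (limma adjusted p = 0.78).

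None of the members was called in the other heterozygous comparisons by limma. Here and below, member counts at an unadjusted p cannot be set against the share of entries called, which is at an adjusted p under 0.05. For KO/+ under the cortex label 8 of 86 members had an unadjusted p under 0.05, 0.114% of entries were called, and the widest differences were those of Rps29 (0.86), Rpl38 (−0.78) and Rpl35a (−0.54). For Δ12/+ under the striatum label 3 of 87 had an unadjusted p under 0.05 and 0.00663% of entries were called. Rpl7, a large-subunit protein, was at 10.1 to 20.2 FPKM (median 15.4) in Δ12/+ and at 17.1 to 27.4 (median 19.1) in +/+, a difference of −0.41, and Rps4x, the X-linked form of a small-subunit protein, differed by −0.43. For Δ12/+ under the cortex label 19 of 87 had an unadjusted p under 0.05, 0.053% of entries were called, and the median member difference was −0.18. Rpl11 was at 1.68 to 3.81 FPKM (median 3.11) in Δ12/+ and at 3.67 to 16.0 (median 6.74) in +/+, a difference of −1.16 (SE 0.32, limma adjusted p = 0.31), and Rpl36 differed by −1.12. These groups overlapped. Under quantile normalization the median member difference of this comparison was 0.05, with 46 of 87 above 0 and 29 at an unadjusted p under 0.05, and limma called 57 entries in all instead of 8.

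Δ12/Δ12 against +/+ gave the largest member differences, and there the classes were mixed within the labelled group. Under the striatum label 22 of 87 members were called, all lower, against 28.7% of 15467 entries called and 13.8% called lower, and the median member difference was −0.57. Rpl32 was at 312, 343 and 307 FPKM in the labelled males of Δ12/Δ12 and at 73.4, 80.0 and 71.2 FPKM in the labelled females, and all 6 libraries of +/+ were at 340 to 474 FPKM. The 3 labelled females are striatum-like and lay below the other 9 libraries, which are cortex-like, and the difference was −1.41 (SE 0.36, limma adjusted p = 0.032). Rpl8 (−0.91), Rpl26 (−0.74), Rps3a2 (−0.80), Rps16 (−0.63), Rpl36al (−0.67) and Rps4l (−0.62) were called too, and all overlapped with +/+. Of the 10 called members with the smallest adjusted p, 2 were lower than +/+ without overlap. Rps19bp1 was at 22.9, 19.7 and 21.2 FPKM in the labelled males, at 9.48, 8.32 and 7.10 in the labelled females and at 23.5 to 29.0 in +/+ (−0.98, SE 0.23, limma adjusted p = 0.030). Rpl29, which binds heparin at the cell surface besides its place in the ribosome, was the member in which labelled males and females lay alike. It was at 66.3, 85.0 and 69.7 FPKM in labelled males and 75.8, 77.3 and 82.0 in labelled females. The +/+ libraries were at 88.9 to 136 FPKM (−0.49, SE 0.13, limma adjusted p = 0.033). Quantile normalization turned Rpl29 to 0.12 and Rpl8 to 0.13.

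In the labelled males alone, which are all cortex-like, 0 of 87 members were called by limma (15 at an unadjusted p under 0.05), and the median member difference was 0.10. With the class as a covariate, without the sex covariate, or without any of the 3 labelled females of either group, 0 members were called, while 40 were called without Δ12/Δ12 male1 and 38 without +/+ male1. Under the cortex label 0 of 87 members were called (46 at an unadjusted p under 0.05), against 0.79% of entries, with a median member difference of −0.70. Rps3 was at 556, 556 and 720 FPKM in the labelled males, at 54.3, 51.8 and 51.0 in the labelled females and at 461 to 1022 in +/+, a difference of −2.05 (SE 0.60, limma adjusted p = 0.067). Rps14 and Rpl13a differed by −1.98 and −1.96. In the labelled males alone the median was 0.02 and Rps14 was at 0.23. Without +/+ male2 under the cortex label 37 members were called. The share of all entries called in these fits without 1 library is not given here, so these counts cannot be read as particular to the members.

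**Figure D5:**
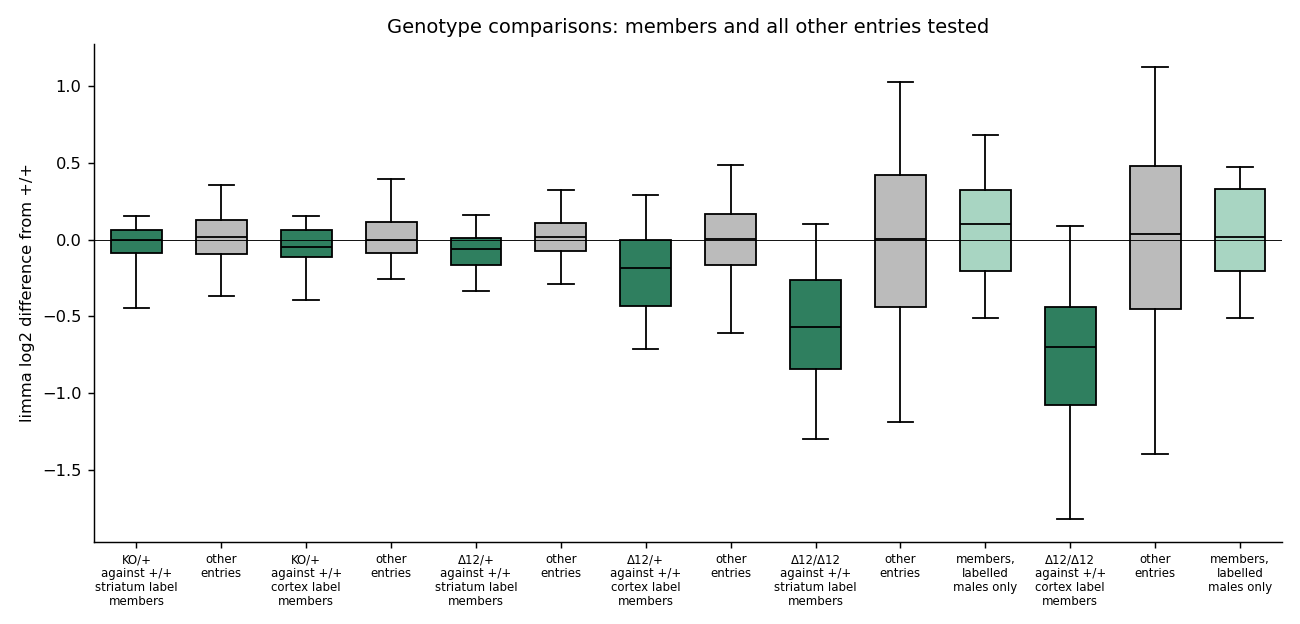
Log2 difference from +/+ (limma) over the members (dark green) and over all other entries tested (grey) in the 6 genotype comparisons, and over the members in labelled males alone for Δ12/Δ12 (light green). Boxes show quartiles and the median, and whiskers the 5th and 95th percentiles. The median of the members is −0.57 and −0.70 for Δ12/Δ12 and 0.10 and 0.02 in its labelled males, and lies between −0.18 and 0.00 in the other comparisons.

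The difference between labelled sexes in the effect of Δ12/Δ12 was tested as an interaction in limma, a test added after the data were seen. Under the striatum label 60 of 87 members were called (59 more negative in labelled females, with Rpl4 as the exception at 1.27), against 55.9% of entries, and the median interaction was −1.33 (log2). Under the cortex label 56 members were called, all below 0, against 44.2% of entries, with a median of −1.65. Rps14 had an interaction of −4.45 (SE 0.25) under the striatum label, and Rps7 of −4.32 (SE 0.31) under the cortex label. In these groups labelled sex and class are the same split, so that they cannot be told apart, and these values repeat the class difference within Δ12/Δ12. Sex-linked transcripts did not follow the split. Under the striatum label Xist was at 14.0 to 24.5 FPKM, with Ddx3y at 0, in the 3 labelled males. There labelled female1 had Xist at 40.3 FPKM, and female2 and female3 had Ddx3y at 6.36 and 6.44. Under the cortex label, labelled male1 had Ddx3y at 32.3 FPKM and the others had Xist at 25.2 to 34.0. In the other 4 genotype comparisons 0 members were called, with 5 to 22 at an unadjusted p under 0.05.

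The tissue labels did not separate the members. Between the 30 libraries labelled striatum and the 30 labelled cortex, limma with line, genotype and sex as covariates called 0 of 87 members (4 at an unadjusted p under 0.05) and 0% of 16076 entries. The widest member differences were those of Rps26 (−0.30), Rpl36 (0.23) and Rps15a (0.22), and the median was 0.04. The interaction of genotype with tissue label called 0 members in KO/+, Δ12/+ and Δ12/Δ12, with 5, 8 and 1 at an unadjusted p under 0.05. Each tissue label holds 15 cortex-like and 15 striatum-like libraries.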

How the data were processed

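Each library has a table of 47597 mouse Ensembl entries with FPKM values and confidence bounds, deposited in the layout of Cufflinks with coordinates of GRCm38. Libraries were made with a directional kit after rRNA depletion and sequenced on a NovaSeq6000. The submitters' processing notes name bcl2fastq 2.20, Trimmomatic 0.30, TopHat2 2.0.14, SAMtools 1.3, HTSeq 0.6.1p1 and build GRCm38.p4. The program and annotation release behind the FPKM are not given in the sources used here.

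Entries whose status was not OK in every library (23) were dropped. Each library was divided by its median ratio to the geometric mean over 13235 genes, 0.5 was added, and log2 was taken, so that a fold change is on the log2(FPKM + 0.5) scale and understates that of low genes. Entries with a mean of at least 0.5 were kept. Comparisons used limma 3.58.1 in R 4.3.3 with Benjamini-Hochberg adjustment, and descriptions Python 3.11.15, numpy 2.4.6 and pandas 2.3.3. Replicates are the 3 males and 3 females that the labels number within each group, taken as separate animals. On simulated data for KO/+ under the striatum label (15808 entries), 90 of 100 entries changed by 1 and 55 of 100 changed by 0.5 (log2) were recovered. The title and the genotype label of 1 library, striatum KO/+ female3, name different lines, and it was kept in the KO line by its genotype label.

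Depth was estimated from the confidence bounds of entries with a transcript of at least 2000 nt and at least 20 fragments. Length, coding sequence and 50-base words come from GENCODE M21 (the transcript with the longest coding sequence), and start sites from RefSeq. Named are the 5 highest and 5 lowest members by median, P-stalk genes, paralogs with their parents, up to 10 members with the largest class differences in each direction, up to 10 called members per comparison and direction by adjusted p or otherwise the 3 with the largest difference, the 3 most and least variable members of each class, and up to 3 genes of each other list. Some genes that this rule names are not reported here. Rps20, Rpl9 and the genes with shown sequences were added after their values were seen. The members and lists were chosen with earlier results of these data known. Alternatives were other scalings, pseudocounts, filters, covariates, replicate blocks and leaving out single libraries. Scaling by long transcripts, sums with pseudogenes and the interactions were added after the data were seen.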

Additional observations from a re-analysis of the deposited data

Results flagged for a closer look

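Of 70 sets of 4 to 10 libraries checked for a library far from the rest, for named members in the groups of their comparisons and for the summed levels, 1 held one, and chance gives about 1 in 20. Rpl7 was at 27.4 FPKM in striatum +/+ male1 of the Δ12 line, where the nearest was at 19.8. The effect of Δ12/Δ12 differed between labelled males and females in 60 of 87 members under the striatum label and in 56 of 87 under the cortex label (limma interaction, Benjamini-Hochberg adjusted p under 0.05). Over all entries 55.9% and 44.2% were called, so the difference was not particular to the members. In these groups labelled sex and expression class cannot be told apart.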

How the results depend on the processing

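The higher level of the members in the cortex-like libraries kept its direction in the median under every alternative run: the median difference of 1.24 was 1.58 in FPKM as deposited, 0.96 under quantile normalization, 1.40 with a pseudocount of 0.1 and 1.54 with pseudogenes and retrocopies summed in, and the 40 members without overlap became 26 under quantile normalization. The 1 member called for KO/+ under the striatum label became 0 in FPKM as deposited, with no filter and with a replicate block, and 0 to 2 without 1 library. The 22 members called for Δ12/Δ12 under the striatum label became 9 under quantile normalization (8 lower), 7 with no filter, 0 without the sex covariate, 0 with a replicate block, 0 with class as a covariate and 0 in labelled males only, and 0 to 40 without 1 library. Over all entries, 4443 calls became 1412 with no filter, 9 without the sex covariate, 5 with the block, 19 with class as a covariate and 10 in labelled males. Under the cortex label the 0 became 1 under quantile normalization and 0 to 37 without 1 library. No share of all entries called is given here for the fits without 1 library. For KO/+ under the striatum label 1292 calls over all entries became 348 in FPKM as deposited and 697 with the block. Rps14 for Δ12/Δ12 under the cortex label turned to 0.23 with class as a covariate and in labelled males only, and Rpl8 and Rpl29 under the striatum label turned to 0.13 and 0.12 under quantile normalization. The cause was not tested. Of 23 named members in the labelled comparisons, 10 kept direction and side of the threshold under every alternative. Replicate numbers were not taken to pair the libraries in the main fits, and whether they do is not settled here. The deviations of same-numbered libraries correlated above 0.1 in 0 to 2 of 6 pairs per genotype comparison. Between tissue labels they did so in 14 of 30, with a median correlation of 0.07 against −0.02 for other pairs. The block changed no call of a member in the other comparisons. FPKM hold no counts, and for members under about 5 FPKM the deposited bounds are wide, as for Rpl28, whose upper bound lay 148% above its value in the cortex-like libraries.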
